A study of Homo sapiens with 12 samples.

Results

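The poly(C)-binding protein family was followed across 4 culture conditions of human iPSCs, in 6 genes picked by name from the 60617 genes with a TPM value. These were PCBP1, PCBP2, PCBP3, PCBP4 and HNRNPK, which encode the proteins, and PCBP1-AS1, a long noncoding RNA transcribed from the opposite strand of PCBP1. The genes were picked because PCBP1 had stood out between Cond 4 and Cond 1 in these same libraries, so every value of that comparison is a description without a test. All 12 libraries came from 201B7, an established iPSC line, harvested on Day 5, with 3 libraries per condition. Cond 1 was the control culture, Cond 2 used StemFit medium that had been heated (56 °C, 30 min), Cond 3 used a differentiation medium (DMEM with 10% FBS, MEM NEAA and GlutaMax), and in Cond 4 the cells were pipetted 20 times at passaging and then kept as in the control. The design text places the conditions in separate wells of each of 3 plates, whereas the study's results call its replicates technical, so p-values measure only the spread between these samples. Per the study, the heated medium was given from Day 2 and the FBS medium on Day 4. Between Cond 2 and Cond 3, the medium and the time in it cannot be told apart. A single line was used, and in bulk RNA fewer cells with a transcript cannot be told apart from less transcript per cell.

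Poly(C)-binding proteins hold several KH domains, folds that grip single-stranded nucleic acid, and prefer runs of cytosine. They act in splicing, in mRNA stability and in translation, and PCBP1 and PCBP2 also carry iron to ferritin and to iron-using enzymes. PCBP1 has no introns and is regarded as a retrocopy of a PCBP2 transcript, whereas HNRNPK encodes a mainly nuclear member of the family.

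Libraries held 16441148 to 21871503 counts in total. The summed TPM of 10 pluripotent stem cell markers was between 5937 and 7276 over the 12 libraries, most of it from LIN28A, DNMT3B, SOX2 and TDGF1, and single markers differed. NANOG had a mean of 45.9 TPM in Cond 1, 22.9 in Cond 2 and 10.5 in Cond 3. TDGF1 had 1299, 490 and 689 TPM in the same order, DPPA4 681, 468 and 516, and L1TD1 592, 380 and 449. LIN28A and SOX2 were higher in both media, at 1689, 2117 and 1897 TPM and at 908, 1304 and 1263 TPM. SALL4 had 199, 263 and 260, DNMT3B 1371, 1378 and 1868, and ZFP42 8.07, 7.75 and 11.3. POU5F1 had 1.32, 0.592 and 1.20 TPM. Yet the study's manual threshold counted most control cells as positive for OCT4, its protein. This low TPM is thus not read as the true level of the gene, and its cause was not tested. The summed TPM of 5 blood and endothelium markers was at most 1.05. The summed TPM of 6 neuroectoderm markers was 255.7 to 417 over the Cond 2 libraries, against 19.1 to 25.5 over those of Cond 1, most of it from HESX1 and SIX3. The summed TPM of 8 fibroblast markers was 585 to 622 over the Cond 3 libraries, 265 to 314 over those of Cond 2 and 424 to 456 over those of Cond 1, and FAP was at 0 in all conditions. Of its main genes, COL1A1 and COL1A2 were higher in Cond 3 than in Cond 1 (436 against 246 TPM and 110 against 47.0), and THY1 was lower (48.9 against 141). The part of these shifts in the results on Cond 2 and Cond 3 was not tested.

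The gene models were examined first, because PCBP1 lies across exons of its antisense partner. PCBP1 (ENSG00000169564) is a single exon at chr2:70087477-70089203 of GRCh38 on the forward strand, and PCBP1-AS1 (ENSG00000179818) runs on the reverse strand at chr2:69960104-70103220 with 50 separate exon blocks in GENCODE release 44. Exons of PCBP1-AS1 covered 73.2% of the 1727 exon bases of PCBP1. The remaining 463 bases were a stretch of 311 bases at the start of the gene (chr2:70087477-70087787) and a stretch of 152 bases inside the coding sequence (chr2:70088258-70088409). Of the coding bases, 196 lay under no other exon. The inner stretch is shown because it is the only part of PCBP1, beside its start, where bases lie under no exon of another gene. It is printed from the reference genome (chr2:70088246-70088421, forward strand), with the free bases in capitals and 12 bases of overlapped sequence on each side in lower case.
PCBP1 inner free stretch: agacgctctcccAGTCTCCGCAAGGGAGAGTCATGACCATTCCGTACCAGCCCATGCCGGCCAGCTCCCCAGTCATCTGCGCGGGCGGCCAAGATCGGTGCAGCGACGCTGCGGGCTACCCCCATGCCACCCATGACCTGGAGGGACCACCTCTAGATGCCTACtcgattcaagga

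**Figure D1:**
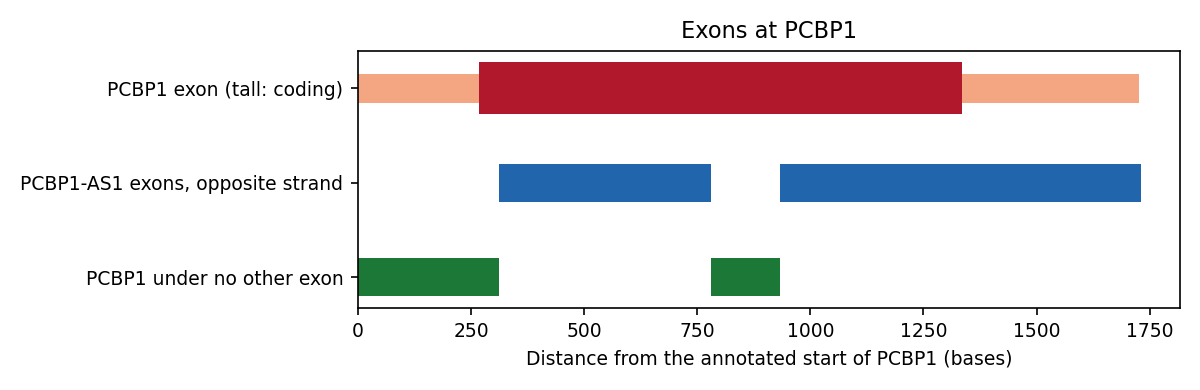
Exons of PCBP1 and PCBP1-AS1 against the distance in bases from the annotated start of PCBP1. The coding part of PCBP1 is drawn tall, the exons of PCBP1-AS1 on the opposite strand are below it, and the stretches of 311 and 152 bases that lie under no other exon are in the lowest track.

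The libraries were strand-specific, and the methods do not state whether strand was used when reads were counted. Of 17 protein-coding genes with 100% of their exon bases under exons of the opposite strand, 16 had 0 counts in all 12 libraries, among them DND1, an RNA-binding protein of germ cells, and the exception was EVA1B. Of 12612 protein-coding genes with no such overlap, 15.8% had 0 counts in all libraries. In the range of 50 to under 75% overlap, which holds PCBP1, 9.22% of 141 genes had 0 counts. The median of their mean counts was 23.6, against 99.25 in genes with no overlap and 347 in genes with an overlap above 0 and under 50%. The levels of PCBP1 and PCBP1-AS1 are therefore given with this limit, and how many reads the overlap cost either gene was not tested. The share of exon bases free of any other gene was 91.1% for PCBP1-AS1, 67.3% for PCBP2, 90.9% for PCBP4 and 91.8% for HNRNPK. PCBP3 has no row in the count table and was followed on TPM.

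PCBP1 was the member whose level differed most between conditions. Its TPM was 65.3, 56.4 and 62.9 in the libraries of Cond 1 and 57.9, 71.5 and 82.9 in those of Cond 2. In Cond 3 the libraries had 90.4, 82.7 and 80.9 TPM, and in Cond 4 they had 141, 158 and 141 TPM. All libraries of Cond 4 were above all others, all of Cond 3 were above all of Cond 1, and those of Cond 2 overlapped with both Cond 1 and Cond 3. From Cond 1 to Cond 4 in turn, the mean TPM ± SD of 3 libraries was 61.6 ± 4.62, 70.8 ± 12.5, 84.6 ± 5.05 and 146 ± 9.97. Each control library held 466 to 645 reads of PCBP1, and each Cond 4 library held 1165 to 1419. The ratio of the highest to the lowest condition mean of PCBP1 was 2.38. This was at the percentile of 89.9 among 16449 genes with a mean of at least 1 TPM and above 0 TPM in every library. These means are those of Cond 4 and Cond 1, the comparison by which the genes were picked.

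PCBP1-AS1 had between 1.59 and 2.37 TPM over the 12 libraries, on 230 to 387 reads, and the libraries of all conditions overlapped. The mean of its 3 libraries was 1.90 ± 0.290 TPM (SD) for Cond 1 and 2.05 ± 0.117 TPM (SD) for Cond 4. The ratio of its highest to its lowest condition mean was 1.08, at the percentile of 3.78.

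PCBP2 (ENSG00000197111, chr12:53452102-53481162, forward strand) encodes the protein closest to PCBP1. Its TPM was 109, 118 and 114 in Cond 1, 121, 123 and 129 in Cond 2, 112, 105 and 115 in Cond 3, and 115, 108 and 115 in Cond 4. The libraries of Cond 2 were above those of the other conditions, and Cond 1, Cond 3 and Cond 4 overlapped. The ratio of its highest to its lowest condition mean was 1.12, at the percentile of 8.12.

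PCBP3 (ENSG00000183570, chr21:45643694-45942454, forward strand) had the lowest level of the genes that encode proteins. Its TPM was 4.55, 5.15 and 4.52 in Cond 1, 5.22, 4.85 and 5.23 in Cond 2, 6.76, 6.29 and 5.91 in Cond 3, and 3.90, 4.82 and 4.90 in Cond 4. Cond 3 was above all other conditions, which overlapped with each other.

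PCBP4 (ENSG00000090097, chr3:51957454-51974016, reverse strand) is known as a target of p53 that slows the cell cycle. Its TPM was 42.3, 41.5 and 45.5 in Cond 1, 57.1, 48.5 and 46.8 in Cond 2, 39.6, 35.3 and 41.1 in Cond 3, and 43.4, 37.9 and 46.9 in Cond 4. Cond 2 was above Cond 1 and Cond 3 was below it, and Cond 4 overlapped with each of the others.

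HNRNPK (ENSG00000165119, chr9:83968083-83980631, reverse strand), which acts in transcription and splicing, had the highest level. Its TPM was 583, 575 and 586 in Cond 1, 673, 753 and 735 in Cond 2, 729, 703 and 694 in Cond 3, and 621, 573 and 614 in Cond 4. The libraries of Cond 2 overlapped with those of Cond 3, and both groups were above Cond 1 and Cond 4. The order of the family in Cond 1 was thus HNRNPK, PCBP2, PCBP1, PCBP4 and PCBP3 per length, with no overlap between neighbours in this order. Per exon base under no other gene, PCBP1 was above PCBP2 in Cond 1, at 57.9% of their sum.

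**Figure D2:**
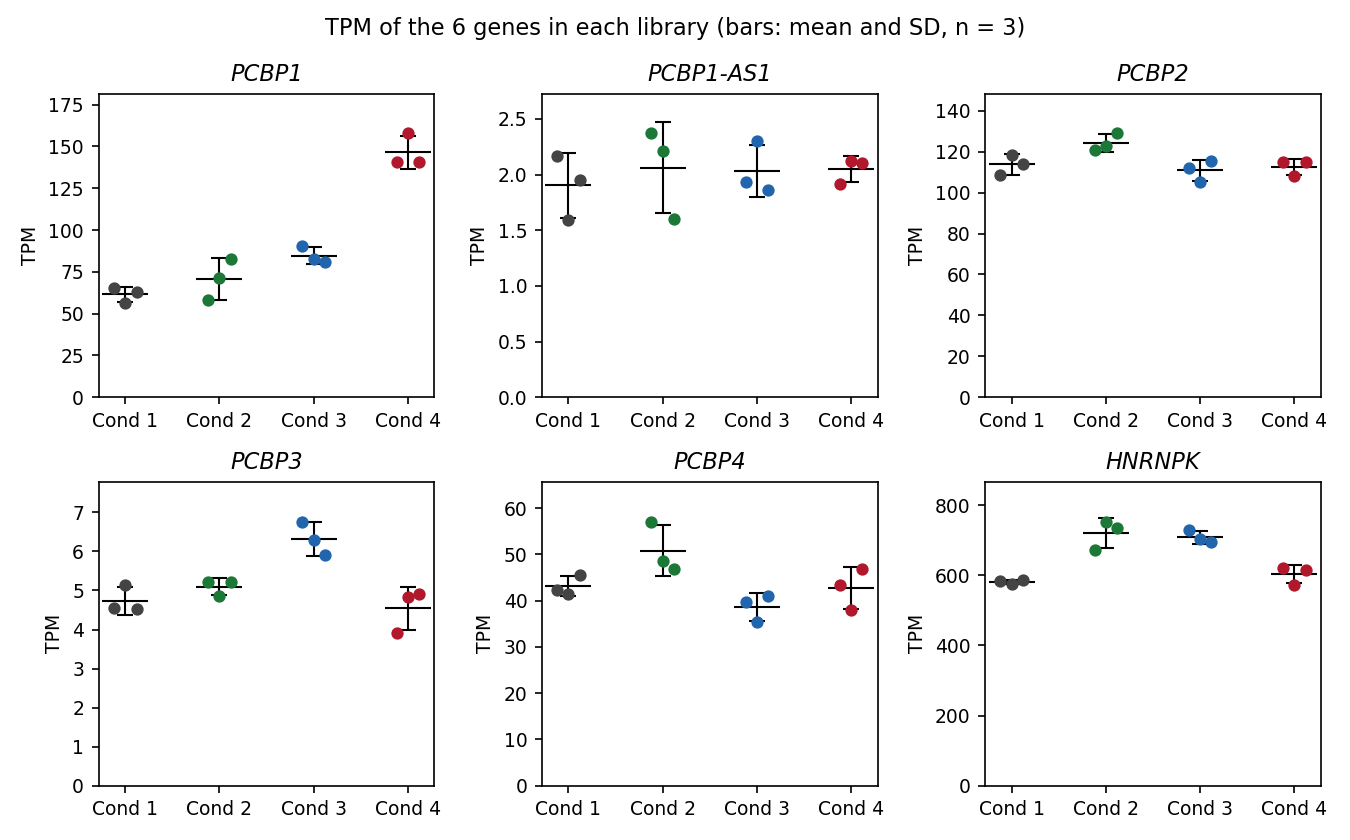
TPM of each of the 6 genes (vertical axes, from 0) in the 3 libraries of each condition (horizontal axes), as points with the mean and SD. PCBP1 is between 141 and 158 in Cond 4 and at most 90.4 elsewhere, PCBP1-AS1 stays between 1.59 and 2.37, and HNRNPK is between 673 and 753 in Cond 2 and Cond 3.

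The heated medium was compared with the control to see which members differ when the medium alone is altered. Counts were tested with edgeR in one fit over the 12 libraries, and a gene was called at an adjusted p-value under 0.05. Of the 5 members with a count row, all of which passed the filter on low counts, 1 was called in Cond 2, against 20.9% of the 17747 genes tested. This was HNRNPK, which rose by 0.22 on the log2 scale, or 1.17-fold (standard error 0.044, adjusted p = 6.8e-04 by edgeR). For PCBP1 the log2 fold change was 0.11, with a 95% interval of −0.09 to 0.31 (adjusted p = 0.51 by edgeR), whose sign turned without replicate 3 of Cond 2 (−0.0090). PCBP4 had 0.15 (interval −0.04 to 0.34), PCBP2 0.04 (interval −0.07 to 0.15) and PCBP1-AS1 0.03 (interval −0.25 to 0.31). PCBP3 had 0.09 on the log2(TPM + 1) scale (adjusted p = 0.76 by limma, which called 8.58% of 35717 genes). On TPM, the libraries of 3 of the 6 members did not overlap with Cond 1 (PCBP2, PCBP4 and HNRNPK, all higher), against 35.3% of 17623 genes. TPM ran higher as a whole in Cond 2, since genes with a mean of at least 10 TPM had a median log2 fold change of 0.10 on log2(TPM + 1) and of 0.02 in the edgeR fit.

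In the differentiation medium of Cond 3, PCBP1 and HNRNPK rose. They made 2 of the 5 members tested, against 38.4% of all genes tested, so this share was close to the background. PCBP1 rose by 0.43 on the log2 scale, or 1.35-fold (standard error 0.0997, adjusted p = 0.0015 by edgeR), and its call held in all alternatives run on the adjusted p alone. HNRNPK had 0.26 (standard error 0.044, adjusted p = 6.9e-05 by edgeR). PCBP4 had −0.19 (adjusted p = 0.14 by edgeR), PCBP2 −0.06 (adjusted p = 0.38) and PCBP1-AS1 0.06 (adjusted p = 0.77). PCBP3 had 0.35 on the log2(TPM + 1) scale, with an adjusted p of 0.066 by limma, against a background of 14.9% of 35717 genes called. With only genes of at least 1 TPM in all libraries, its adjusted p was 0.031 by limma, so its call depended on which genes entered the adjustment. The libraries of 4 of the 6 members did not overlap with Cond 1 on TPM, with PCBP1, PCBP3 and HNRNPK higher and PCBP4 lower, against 47.6% of 17623 genes. The exact two-sided permutation test gave p = 0.1 for each of these, the smallest p that 3 libraries against 3 allow. No member passed the study's further limit of a fold change above 2, which 4.34% of the genes tested passed in Cond 2 and 8.16% in Cond 3.

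The altered media were also set against each other, in the same fit over the 12 libraries. They were given for unlike times, so a difference cannot be ascribed to the medium or to its duration. In Cond 3, PCBP1 exceeded its Cond 2 level by 0.32 on the log2 scale (standard error 0.099, adjusted p = 0.013 by edgeR), and PCBP4 was lower, at −0.34 (standard error 0.098, adjusted p = 0.0085 by edgeR). With the Cond 2 and Cond 3 libraries alone, the adjusted p-values were 0.027 and 0.014 by edgeR. These were 2 of 5 members, against 38.2% of the genes tested. The call on PCBP1 was lost in 5 of 15 alternatives. Among these were the fits without replicate 1 of Cond 2 (0.21, adjusted p = 0.091 by edgeR) and without replicate 1 of Cond 3 (0.27, adjusted p = 0.066 by edgeR). Another was limma on log2(TPM + 1) (0.27, adjusted p = 0.16). The call on PCBP4 was lost without replicate 1 of Cond 2 (−0.22, adjusted p = 0.073 by edgeR) or replicate 2 of Cond 3 (−0.28, adjusted p = 0.056 by edgeR). HNRNPK had 0.04 (adjusted p = 0.56 by edgeR) with an interval of −0.05 to 0.12. PCBP2 had −0.10 (adjusted p = 0.14 by edgeR), and with limma on log2(TPM + 1) it had −0.16 (adjusted p = 0.048). On TPM, 3 of the 6 members did not overlap (PCBP2 and PCBP4 lower, PCBP3 higher), against 46.7% of 17623 genes. TPM ran lower as a whole in Cond 3 than in Cond 2. Genes with a mean of at least 10 TPM had a median log2 fold change of −0.083 on log2(TPM + 1) and of −0.029 in the edgeR fit. How much of the PCBP2 difference on TPM follows this shift was not tested. PCBP3 had 0.26 on log2(TPM + 1) (adjusted p = 0.17 by limma, which called 15.9% of 35717 genes).

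Between Cond 4 and Cond 1, the comparison by which the genes were picked, PCBP1 was fitted at 1.24 on the log2 scale (standard error 0.099), or 2.36-fold. The other members had between −0.05 (PCBP3, on log2(TPM + 1)) and 0.09 (PCBP1-AS1), with PCBP2 and PCBP4 at −0.03 and HNRNPK at 0.04. PCBP1 was 1 of the 6 members whose libraries did not overlap on TPM, in a comparison where 11.9% of 17623 genes did not. Over all genes tested, 0.0282% reached an adjusted p under 0.05 by edgeR in this comparison, and no member is read against that share. Among 9402 tested genes with a mean of at least 10 TPM, 2 had a larger absolute change, and among all 17747 it was 245. When the counts of PCBP1 and PCBP1-AS1 were summed into 1 gene, the log2 fold change was 0.93. The mean TPM of PCBP1 in Cond 4 was 2.07 times that of Cond 2 and 1.73 times that of Cond 3.

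**Figure D3:**
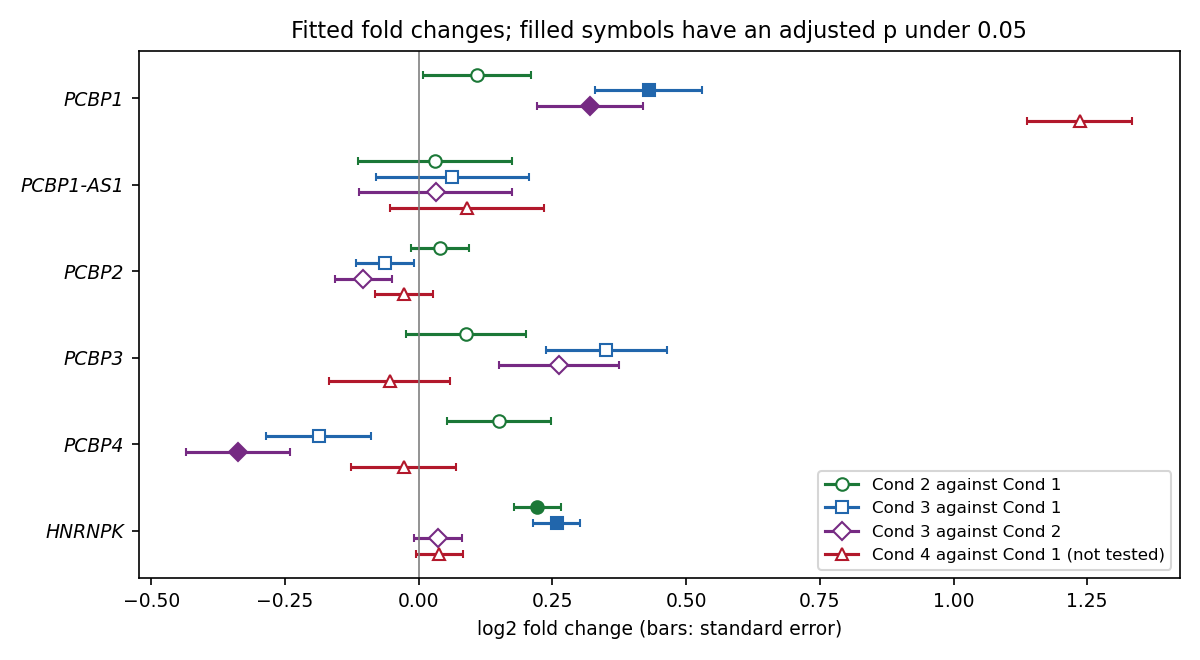
Fitted log2 fold changes of the 6 genes (horizontal axis) with their standard errors, for 4 comparisons. PCBP3 is on log2(TPM + 1) and the others are from the edgeR fit of counts. Filled symbols mark an adjusted p under 0.05, and Cond 4 against Cond 1 was not tested. PCBP1 in Cond 4 lies at 1.24, while the remaining values lie between −0.34 and 0.43.

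The balance between PCBP1 and PCBP2 was expressed as the share of PCBP1 in their summed TPM. From Cond 1 to Cond 4 in turn, the mean share ± SD of 3 libraries was 35.1 ± 2.68%, 36.1 ± 3.41%, 43.3 ± 1.80% and 56.5 ± 2.48%. Cond 2 differed from Cond 1 by 1.00 percentage points (exact two-sided permutation test, p = 0.7) and Cond 3 by 8.15 (exact p = 0.1, the smallest possible). Cond 4 was described only. On TPM, PCBP2 was thus above PCBP1 in Cond 1, Cond 2 and Cond 3, and below it in Cond 4. This order depended on the length used. Per exon base that lay under no other gene, an alternative added after the data were seen, the mean share ± SD in the same order was 57.9 ± 2.88%, 58.9 ± 3.62%, 66.0 ± 1.66% and 76.7 ± 1.78%, with PCBP1 above PCBP2 in all conditions. The order of the conditions was the same on both scales, which adds no support, since both divide the same counts by fixed lengths.

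**Figure D4:**
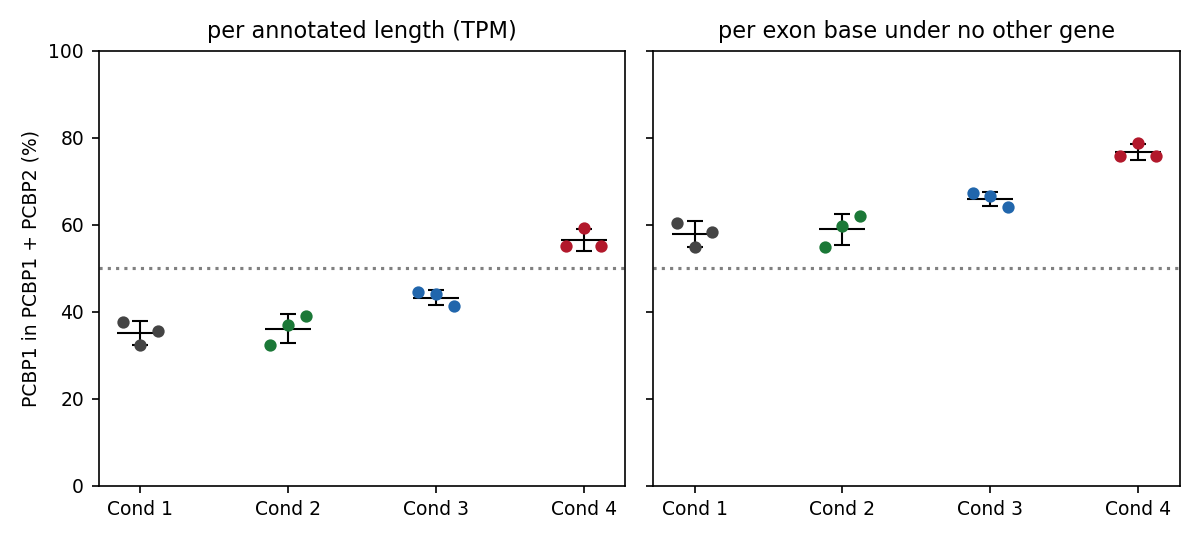
Share of PCBP1 in the sum of PCBP1 and PCBP2 (vertical axis, %) in each library, per annotated length as TPM (left) and as counts per exon base under no other gene (right), with the mean and SD of 3 libraries. The dotted line marks equal levels, which Cond 1 to Cond 3 lie below on the left and above on the right.

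PCBP1 and PCBP2 start behind related sequence, shown here because the pair are the closest relatives of the family and, of the pair, the edgeR fit called PCBP1 alone. The 250 bases before each annotated start are printed from RefSeq (GRCh38.p14), at chr2:70087227-70087476 for PCBP1 and chr12:53451852-53452101 for PCBP2, both on the forward strand. Capitals mark the identical runs of at least 10 bases that the pair shares.
PCBP1: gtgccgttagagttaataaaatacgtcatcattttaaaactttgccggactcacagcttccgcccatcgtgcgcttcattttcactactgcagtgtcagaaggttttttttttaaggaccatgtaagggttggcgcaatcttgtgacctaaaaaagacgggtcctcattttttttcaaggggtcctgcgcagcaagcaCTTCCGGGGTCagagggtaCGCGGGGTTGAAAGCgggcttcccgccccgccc
PCBP2: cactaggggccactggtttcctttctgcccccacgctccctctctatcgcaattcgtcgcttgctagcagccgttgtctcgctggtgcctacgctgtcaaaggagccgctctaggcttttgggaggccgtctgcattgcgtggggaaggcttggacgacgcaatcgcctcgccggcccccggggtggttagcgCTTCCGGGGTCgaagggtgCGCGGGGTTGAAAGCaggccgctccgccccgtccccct
The runs were CTTCCGGGGTC and CGCGGGGTTGAAAGC, in the same order and 8 bases apart in both genes, and the second ended 18 bases before the start of PCBP1 and 23 bases before that of PCBP2. Searched on both strands in 35116 RefSeq promoter windows, the first run was in 34 windows (0.0968%). The second was in 4 (0.0114%), namely those of PCBP1 and PCBP2 and a window of PCBP1-AS1 and of ASPRV1 that overlaps the PCBP1 start. The shorter motif CTTCCGG, contained in the first run and known as a core bound by ETS factors, was in 8.52% of all windows and in none of those of PCBP4 or HNRNPK. A match of letters is a description of these windows and not of binding.

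HNRNPK reads may be shared with its processed pseudogenes. Of the 31-base words of HNRNPK transcripts, 9.73% were also in HNRNPKP4, 6.70% in HNRNPKP2 and 3.77% in HNRNPKP1. HNRNPKP4 had between 47.0 and 70.7 TPM on 352 to 600 reads per library, and HNRNPK itself had 13830 to 22766 reads. In Cond 3, HNRNPKP4 rose by 0.28 on the log2 scale (adjusted p = 0.046 by edgeR) and HNRNPKP2 by 0.53 (adjusted p = 0.041 by edgeR), and with DESeq2 neither call held (adjusted p = 0.053 and 0.060). The pseudogenes HNRNPKP5 and PCBP2P3 had 0 counts in all libraries, and how reads with several matches were counted is not stated.

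The genes around PCBP1 were read for a change along the chromosome. Beside PCBP1-AS1, 13 annotated genes lay within 200000 bases, of which 9 were tested. Between Cond 4 and Cond 1, the 4 with a mean of at least 10 TPM had log2 fold changes of 0.13 (SNRNP27), −0.03 (TIA1), 0.03 (PCYOX1) and 0.05 (SNRPG). These 4 lay 120241 to 192159 bases from PCBP1. Over all 9 tested, the values ran from −1.26 to 0.53. The ends were AC016700.1 (standard error 0.74, at 13348 bases) and LINC01816 (standard error 0.41, at 34831 bases), both of low level. In Cond 3, SNRNP27, a component of the spliceosome, fell by 0.46 on the log2 scale (adjusted p = 8.4e-04 by edgeR). SNRPG, a core spliceosomal protein, rose by 0.27 (adjusted p = 0.0064 by edgeR), and ASPRV1, whose exon shares 1528 bases with exons of PCBP1-AS1, fell by 1.498 (adjusted p = 0.0078 by edgeR) at 0.951 against 2.67 TPM. In Cond 2, TIA1, an RNA-binding protein of stress granules, rose by 0.20 (adjusted p = 0.014 by edgeR). The other neighbours tested in Cond 2 and Cond 3 did not pass the threshold.

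Other RNA-binding proteins were taken from fixed lists, chosen with earlier results of these data known. Of 28 other hnRNP proteins, 24 were tested. In Cond 2, 11 (45.8%, against 20.9% of all genes tested) rose by edgeR, with a median log2 fold change of 0.13 against 0.00018 over all genes tested. None of them fell by edgeR, DESeq2 or limma, also at an unadjusted p under 0.05, where 0 were lower. In Cond 3, 12 rose and 5 fell (70.8% in all, against 38.4% of all genes tested), with a median of 0.11, and limma on log2(TPM + 1) gave 10 and 1. HNRNPM, a splicing regulator, had 459 TPM in Cond 3 and 244 in Cond 1, a rise of 0.88 on the log2 scale (adjusted p = 4.6e-11 by edgeR). HNRNPH2 rose by 0.74, HNRNPDL by 0.71 and HNRNPA2B1 by 0.62 (each by edgeR, with adjusted p-values of 5.9e-09, 1.1e-10 and 1.2e-10). In Cond 2 the largest changes of this list were those of HNRNPH2 (0.34), HNRNPD (0.31), PTBP3 (0.28) and HNRNPM (0.24), all higher and all past the threshold. HNRNPK rose less than these, by 0.22 in Cond 2 and 0.26 in Cond 3, but by more than the list medians. In Cond 2 its rise was above the rest of the list, where HNRNPDL was next (0.219), a gap smaller than its standard error (0.044). In Cond 3, HNRNPF (0.53), HNRNPA0 (0.50), HNRNPD (0.48) and PTBP1 (0.29) also rose by more than HNRNPK.

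Of 30 other proteins with KH domains, 29 were tested. In Cond 2, 8 rose and 0 fell by edgeR (3 were lower at an unadjusted p under 0.05, and 0 fell by DESeq2). In Cond 3, 8 rose and 8 fell. The shares called were 27.6% and 55.2%, against 20.9% and 38.4% of all genes tested. The medians were 0.07 and 0.0023, and the latter was −0.0065 with DESeq2. MEX3B, a translational repressor, rose by 0.76 in Cond 2 (adjusted p = 2.1e-06 by edgeR) and by 0.87 in Cond 3 (adjusted p = 1.4e-07 by edgeR), from 18.9 TPM in Cond 1 to 33.9 and 35.2 TPM. NOVA2, a splicing factor of neurons, rose by 0.31 in Cond 2 and 0.87 in Cond 3, and had 12.3 TPM in Cond 1. MEX3D (0.68) and AKAP1 (0.58), an anchor of mRNAs and kinase at mitochondria, also rose in Cond 3. QKI (0.34), ANKRD17 (0.31) and MEX3D (0.31) rose in Cond 2, and ANKRD17 also rose in Cond 3 (0.42).

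Of 15 genes of iron handling, the process in which PCBP1 and PCBP2 act as chaperones, 12 were tested. In Cond 2, 2 rose and 3 fell, and in Cond 3, 2 rose and 4 fell, with medians of 0.08 and −0.04. The shares called were 41.7% and 50%, against 20.9% and 38.4% of all genes tested. With limma on log2(TPM + 1), 1 fell in each. ACO1, an iron regulatory protein, fell by 0.61 in Cond 2 (adjusted p = 2.1e-06 by edgeR) and fell by 0.48 in Cond 3 (adjusted p = 2.6e-05 by edgeR). TFRC, the transferrin receptor, fell by 0.32 in Cond 2 (adjusted p = 0.0066 by edgeR) and fell by 0.35 in Cond 3 (adjusted p = 0.0016 by edgeR), calls that limma on log2(TPM + 1) did not make (adjusted p = 0.27 and 0.065). STEAP3, an endosomal iron reductase, rose by 0.30 in Cond 2 (adjusted p = 0.035 by edgeR) and 0.46 in Cond 3 (adjusted p = 8.0e-04 by edgeR). SLC11A2, the iron importer from which PCBP2 takes its load, rose by 0.30 in Cond 2. IREB2, the other iron regulatory protein, rose by 0.53 in Cond 3 (adjusted p = 3.5e-07 by edgeR).

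Of 19 known targets and partners of the family, 14 were tested. In Cond 2, 2 rose and 4 fell, and in Cond 3, 4 rose and 4 fell, with medians of −0.03 and 0.13. Against the same 20.9% and 38.4% of all genes, 42.9% and 57.1% were called. The median in Cond 2 was 0.015 with limma on log2(TPM + 1), which called 2 higher and 2 lower in Cond 2, and 4 higher and 2 lower in Cond 3. MYC, whose transcription HNRNPK can activate, fell by 0.63 in Cond 2 and fell by 1.65 in Cond 3 (adjusted p = 1.7e-04 and 1.5e-10 by edgeR), from 54.0 TPM in Cond 1 to 17.6 in Cond 3. CDKN1A, an inhibitor of the cell cycle whose mRNA members of the family bind, fell by 0.70 in Cond 2 and fell by 2.19 in Cond 3 (adjusted p = 0.021 and 1.0e-07 by edgeR), and the call in Cond 2 was not made by DESeq2 (adjusted p = 0.15) or limma (adjusted p = 0.26). COL1A1, a collagen mRNA stabilized by these proteins and also a fibroblast marker here, fell by 0.51 in Cond 2 and rose by 0.80 in Cond 3 (adjusted p = 4.7e-06 and 3.4e-09 by edgeR). FOLR1, a folate receptor whose mRNA PCBP1 binds, rose by 1.38 in Cond 2 (adjusted p = 1.4e-04 by edgeR), from 7.35 to 20.2 TPM. EEF1A1, the elongation factor that PCBP1 can hold on the ribosome, fell by 0.30 in Cond 3 (adjusted p = 1.4e-05 by edgeR, 0.11 by limma on log2(TPM + 1)). It was also called lower in Cond 2 by edgeR, at −0.31. In Cond 4, where PCBP1 was highest, the median log2 fold changes of the hnRNP, KH domain, iron and target lists were 0.06, 0.01, 0.01 and 0.01, against 0.00033 over all genes tested.

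**Figure D5:**
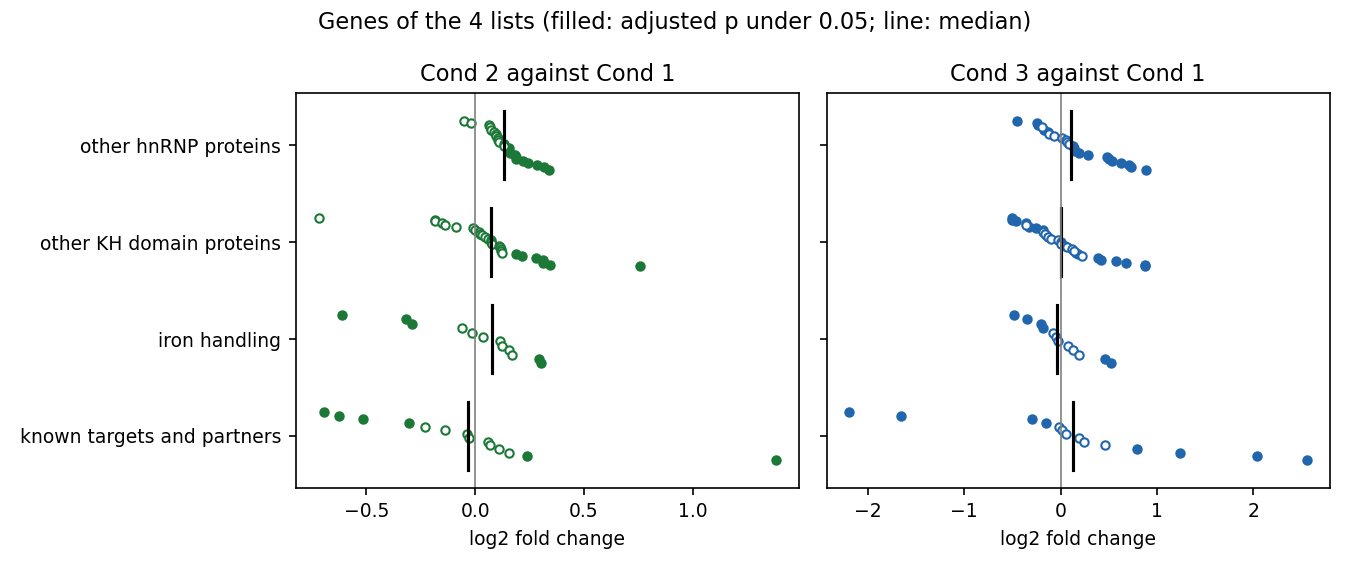
Log2 fold changes (horizontal axis) of the genes of the 4 lists in Cond 2 (left) and Cond 3 (right) against Cond 1, with filled points for an adjusted p under 0.05 by edgeR and a line at the median of each list. The hnRNP proteins span −0.05 to 0.34 in Cond 2, and −0.45 to 0.88 in Cond 3.

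The genes most like PCBP1 over the 12 libraries, by Pearson's r of log2(TPM + 1) among 9736 genes with a mean of at least 10 TPM, were ENDOG (r = 0.861), LINC01578 (0.858), TAF10 (0.809), E2F5 (0.798) and NXPE3 (0.794). ENDOG, a mitochondrial endonuclease, had a mean of 17.5 TPM in Cond 1 and 28.6 in Cond 4, and LINC01578, a noncoding RNA, had 25.9 and 38.7. TAF10, a subunit of the general transcription machinery, had 9.93 and 15.2 TPM. For PCBP1-AS1 they were SUN1 (0.913), RBIS (0.873) and SPPL2B (0.868). These correlations are descriptions, since the points share libraries and those of Cond 4 stand apart for PCBP1.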

How the data were processed

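Per the methods, poly(A) RNA libraries were strand-specific, and reads were trimmed with cutadapt (4.1) and fastp (0.20.1), aligned to GRCh38 with HISAT2 (2.1.0) and counted with featureCounts. The authors deposited read counts per gene, without normalization. The deposited TPM values are the authors' counts per gene length, scaled per library. Broken lines of the count table, 5 of 58580, were dropped.

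After TMM scaling, counts went into edgeR's quasi-likelihood test (4.0.16; R 4.3.3) over 12 libraries and 17747 genes, with Benjamini-Hochberg adjustment. PCBP3 was tested with limma (3.58.1) on log2(TPM + 1), and intervals are normal 95% intervals. Sequence features came from GENCODE release 44 and RefSeq. Replicates differed by more than sampling noise (chi-square per gene 4.18 to 10.2), and depth limits low genes. The scripts were tested on simulated counts. Alternatives included DESeq2 (1.42.0), other scalings and filters, and each library left out. All 6 members were named, together with at most 4 genes per list (the largest changes past the threshold, mean TPM of at least 10), genes near or overlapping PCBP1, pseudogenes, and the genes most alike. The members and lists were chosen with earlier results of these data known. DND1 and EVA1B were named after their values were seen.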

Additional observations from a re-analysis of the deposited data

How the results depend on the processing

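The calls of HNRNPK in Cond 2 and Cond 3 and of PCBP1 in Cond 3 held under DESeq2, upper-quartile normalization, no filter, limma on TPM, the 6 libraries alone, the replicate block and each library left out. With the added limit of a fold change above 2, 0 members were called in Cond 2, Cond 3 and Cond 3 against Cond 2. For Cond 3 against Cond 2, limma on log2(TPM + 0.1) called 1 member, and leaving out a library gave 0 to 2. PCBP1 in Cond 4 had a log2 fold change of 1.17 to 1.27 with a library left out and 0.93 summed with PCBP1-AS1. With only the 6 libraries compared, the calls of TIA1 (adjusted p = 0.056 by edgeR), CDKN1A (0.058) and NOVA2 (0.085) in Cond 2 were lost. So was that of HNRNPKP2 in Cond 3 (adjusted p = 0.055 by edgeR). As a share of counts in place of TPM, PCBP1 rose against PCBP2 by 3.73 percentage points in Cond 3, by 11.6 in Cond 4 and by 3.29 for Cond 3 against Cond 2, which follows from PCBP2's greater length.

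Signs turned in small values. With a library left out, PCBP1 in Cond 2 had −0.0090 to 0.22. PCBP1-AS1 had −0.10 to 0.19 in Cond 2, −0.051 to 0.16 in Cond 3 and −0.13 to 0.16 for Cond 3 against Cond 2. In the last comparison, limma gave PCBP1-AS1 −0.0086 and, with the smaller pseudocount, −0.0081, and gave HNRNPK −0.022. Genes with a mean of at least 10 TPM had a median there of −0.083 on log2(TPM + 1), against −0.029 in the edgeR fit. The part of this shift in the turned signs was not tested.

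The replicate numbers gave no clear pairing of the libraries. Deviations of same-numbered libraries correlated between −0.013 and 0.038, and those of other numbers between −0.069 and 0.061. Of 12 libraries, 7 correlated best with their own number, and whether a weak pairing exists was not tested. With the replicate block, 1 member was called in Cond 2, 2 in Cond 3 and 2 for Cond 3 against Cond 2, as without it. The limma block and left-out libraries for PCBP3, and counts per free base, were chosen after seeing the data.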
